A study of Mus musculus with 6 samples.

Results

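The genes of the DNA replication machinery are described here in a mouse macrophage line with and without knockdown of Trem2. They are the 34 genes that the deposited annotation places in the KEGG pathway DNA replication, of 56092 gene symbols in the count table, and all 34 had enough counts to be tested. RNA-seq was run on 6 libraries of RAW264.7, an established mouse macrophage line. The cells carried a lentiviral short hairpin RNA together with GFP and were stably selected with puromycin, either the control shNC (3 libraries) or shTrem2 (3 libraries). The labels call shNC an empty vector, while the study's methods give it a negative control hairpin of its own. Both groups were first given IL-4, which induces Arg1 (20 ng/mL, 24 hours), and then debris of TCMK-1, a mouse renal tubular epithelial line, for a further 24 hours. No library without IL-4 or without debris was analysed here, so every value below is a contrast between these shRNA lines under the same treatment. The sources used here name 2 Trem2 hairpins and do not say which of them the sequenced line carried. Neither do they say whether the 3 libraries of a group came from separate cultures, so the p-values measure the spread between these libraries only, which may be technical.

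Chromosomal DNA is copied once per cell cycle. The MCM helicase is loaded on origins before S phase and unwinds the duplex, DNA polymerase alpha-primase lays down RNA-DNA primers, and the polymerases epsilon and delta extend the leading and the lagging strand, held on DNA by the sliding clamp PCNA that the RFC clamp loader places there. RPA coats the exposed single strand, and RNase H, FEN1, DNA2 and DNA ligase I remove primers and join the Okazaki fragments. Many of these genes are known targets of E2F transcription factors and are transcribed mainly in cycling cells, so in bulk RNA a larger share of cycling cells and more RNA per cycling cell cannot be told apart. Transcript levels do not measure division, and cell cycle phase was not tested. In its own assays with IL-4 and debris, the study reported less proliferation, fewer cells and more apoptosis after Trem2 knockdown.

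Most DNA replication genes were higher in shTrem2 than in shNC. By the median log2 fold change of each role group, the MCM helicase was highest (1.00). RNase H was lowest (0.20), close to DNA polymerase delta (0.26). The gene that rose most was Pola1, and of the genes that passed the test below, only Pold4 fell. With edgeR's quasi-likelihood test, 29 of the 34 genes rose and 1 fell at a false discovery rate (FDR) under 0.05, against 28.8% of all tested genes that rose and 28.6% that fell (57.4% in either direction). A gene is called here when its fold change was also over 1.5. By that criterion 21 of 34 (61.8%) were called higher, against 9.46% of the 13528 genes tested, and 1 was called lower, against 12.4% (21.8% in either direction). The other 8 genes past the FDR threshold rose by 1.5-fold or less, and 4 genes (Pola2, Dna2, Rnaseh2a and Rnaseh2b) did not pass it. The median log2 fold change over the 34 genes was 0.66, a fold of 1.58, and the median over all tested genes was a fold of 0.99998. The log2 fold change was positive in 31 genes and ranged from -0.99 to 1.26. In 30 genes every shTrem2 library lay above every shNC library, which was so for 32.1% of all tested genes, and the groups were apart in either direction in 63.8%.

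**Figure D1:**
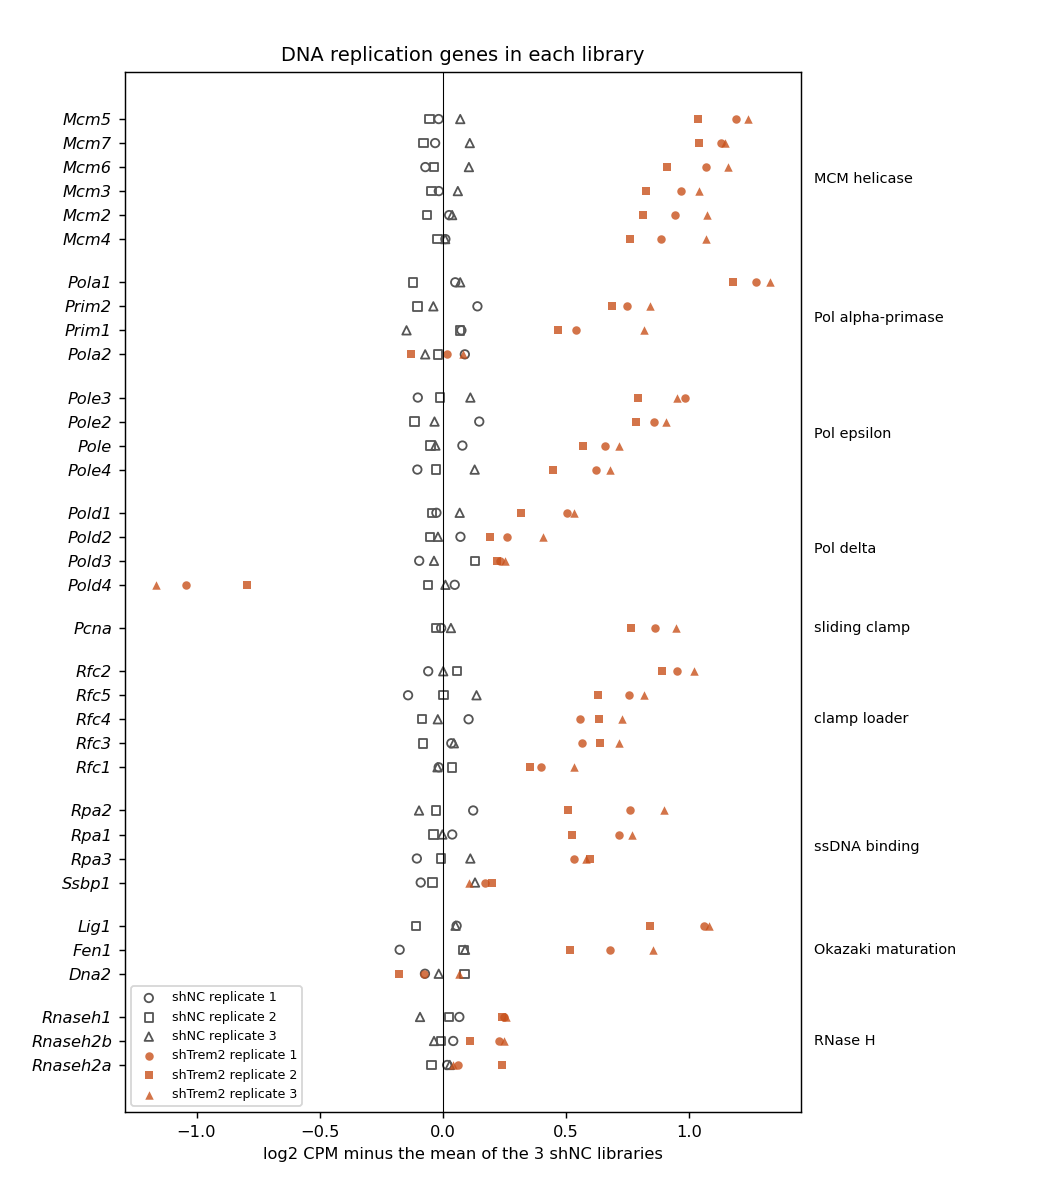
Each point is 1 library, placed by its log2 CPM minus the mean of the 3 shNC libraries (horizontal axis), with the 34 genes in rows grouped by role. The shTrem2 libraries (filled) lie to the right of the shNC libraries (open) in 30 genes and to the left in Pold4.

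The targeted gene, Trem2, a lipid-sensing receptor of macrophages, stood at 114, 122 and 144 in shNC and at 64.7, 63.1 and 80.1 in shTrem2, in CPM, the gene's counts scaled to a common library total. The groups did not overlap, and the log2 fold change was -0.87 (SE 0.094, FDR 3.39e-06 in edgeR's quasi-likelihood test). On the deposited FPKM scale the gap was wider, with Trem2 at 152, 174 and 208 in shNC and at 40.1, 38.6 and 46.4 in shTrem2 (means 178 ± 28.5 and 41.7 ± 4.14). Total counts were 16054486 to 18290532 per shNC library and 19545744 to 19835186 per shTrem2 library, and a DNA replication gene held between 186 and 12077 counts in a library. Of 10 macrophage markers, 9 were tested, of which 3 were called higher and 1 lower, and their summed level was 5245 to 6177 CPM in shNC and 10346 to 11516 CPM in shTrem2. Lyz2 alone made up 48.1% to 51.8% of that sum in shNC and 65.9% to 68.7% in shTrem2, and the other 9 markers summed to 2725 to 2976 CPM in shNC and 3526 to 3621 CPM in shTrem2. Of 14 tubular epithelial markers, 8 were at 0 in every library (Epcam, Cdh1, Krt8, Krt18, Krt19, Pax2, Umod and Cldn2). At most 3 counts in every library were held by 11 of the 14. Only 1 of them was tested, and it was called higher in shTrem2. The highest count of the list in a library was 50, for Aqp1. The tubular sum was 0.887 to 1.49 CPM in shNC and 2.29 to 2.97 CPM in shTrem2. The summed level was 0.559 to 0.887 against 0.521 to 1.08 CPM for 7 fibroblast markers, of which 5 were at 0, and 2.92 to 4.34 against 5.17 to 5.73 CPM for 6 lymphocyte markers, of which Ms4a1 was at 0. The 1 fibroblast marker tested was not called, and the 1 lymphocyte marker tested was called higher. The highest lymphocyte marker count in a library was 106, for Lck.

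Promoter sequence is given first, as a description, and whether E2F factors caused any change was not tested. RefSeq promoter windows of GRCm38.p6, from 250 bases before to 50 bases after the transcription start, matched 28 of the 34 genes by symbol. Mcm4, Pole, Prim2, Rfc2, Rnaseh1 and Rnaseh2b had no entry. The letters TTTGGCGC, TTTCCCGC, TTTGCCGC or TTTCGCGC were searched on both strands with overlaps kept. A gene with several windows was taken to hold a match if any of them did. Matches stood in 11 of the 28 genes (39.3%), namely Mcm3, Mcm5, Mcm6, Mcm7, Pola1, Pold1, Pold3, Pole2, Pole4, Rfc3 and Lig1. They stood in 4.83% of the 9600 tested genes with a window and in 704 of the 27025 genes with any window. Among genes of the DNA replication list, 8 of 17 called higher and 3 of the other 11 held a match. Those called higher without a match were Mcm2, Pcna, Rfc4, Rfc5, Prim1, Pole3, Fen1, Rpa1 and Rpa2, and none of them is printed below. The CCAAT box, searched as CCAAT on both strands, stood in 16 of the 28 genes (57.1%) against 43.4% of tested genes with a window. It stood in all 5 MCM genes with a window. The cell cycle homology region, searched as TTTGAA or TTCGAA, stood in 5 of 28 (17.9%) against 17.2%. A match is a description of the letters and not evidence of binding. The 250 bases before the start are printed 5′ to 3′ for Mcm5, Mcm6 and Pola1, which were among the 4 genes with a fold over 2, and for Pold4, the gene that fell; these were chosen after their values were seen. Capitals mark the E2F-type letters on either strand. Mcm5 lies at chr8:75109259-75109508 on the plus strand, Mcm6 at chr1:128359706-128359955 on the minus strand, Pola1 at chrX:93632156-93632405 on the minus strand and Pold4 at chr19:4231643-4231892 on the plus strand.
Mcm5: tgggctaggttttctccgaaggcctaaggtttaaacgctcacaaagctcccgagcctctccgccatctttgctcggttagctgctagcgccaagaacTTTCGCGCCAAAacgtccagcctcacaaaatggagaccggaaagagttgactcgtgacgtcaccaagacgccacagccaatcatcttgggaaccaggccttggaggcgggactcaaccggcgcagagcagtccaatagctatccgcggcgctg
Mcm6: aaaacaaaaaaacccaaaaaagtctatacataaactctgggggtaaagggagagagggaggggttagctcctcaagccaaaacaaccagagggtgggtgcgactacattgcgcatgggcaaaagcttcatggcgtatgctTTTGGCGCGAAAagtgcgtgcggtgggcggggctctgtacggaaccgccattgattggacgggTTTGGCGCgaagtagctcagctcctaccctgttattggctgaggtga
Pola1: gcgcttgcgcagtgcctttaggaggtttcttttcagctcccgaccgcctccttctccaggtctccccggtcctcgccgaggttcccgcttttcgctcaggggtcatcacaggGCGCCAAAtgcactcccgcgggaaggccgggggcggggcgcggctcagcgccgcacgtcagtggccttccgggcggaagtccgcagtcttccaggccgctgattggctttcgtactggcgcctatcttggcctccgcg
Pold4: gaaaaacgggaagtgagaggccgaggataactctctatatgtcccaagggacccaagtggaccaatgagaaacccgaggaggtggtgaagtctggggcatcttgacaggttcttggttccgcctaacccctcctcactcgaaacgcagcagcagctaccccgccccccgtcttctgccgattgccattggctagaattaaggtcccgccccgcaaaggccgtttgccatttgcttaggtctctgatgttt
Mcm5 carried overlapping matches on opposite strands, whose left ends lay 153 and 149 bases before the start. Mcm6 carried such an overlapping pair at 110 and 106 bases and a further match at 47 bases. Pola1 carried 1 match, on the opposite strand, at 138 bases, and Pold4 carried none. Mcm7, whose sequence is not printed, had 1 match 165 bases before and 1 match 16 bases after the start.

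The 6 subunits of the MCM helicase all rose, by 1.88- to 2.23-fold, and were the role group with the highest median log2 fold change (1.00). The subunits form 1 hexameric ring, and their changes lay close together, from 0.91 to 1.16 on the log2 scale. Mcm5 stood at 121, 118 and 128 CPM in shNC and at 279, 250 and 288 CPM in shTrem2. Its lowest shTrem2 library lay far above its highest shNC library, and the mean went from 122 ± 5.5 to 272 ± 19.8 CPM (SD, n = 3 each), a log2 fold change of 1.16 (SE 0.058, FDR 2.7e-09 in edgeR's quasi-likelihood test). Mcm7 stood at 104, 101 and 115 CPM in shNC and at 233, 219 and 235 CPM in shTrem2, a log2 fold change of 1.10 (SE 0.055, edgeR FDR 2.78e-09). Mcm6 stood at 135, 138 and 152 CPM in shNC and at 297, 265.4 and 316 CPM in shTrem2, a log2 fold change of 1.05 (SE 0.065, edgeR FDR 1.99e-08). Mcm5, Mcm6 and Mcm7 were thus past 2-fold, with groups far apart.

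Mcm2, Mcm3 and Mcm4 rose by slightly less than 2-fold. Mcm2 was at 107, 100 and 108 CPM in shNC and at 202, 184 and 221 CPM in shTrem2, a log2 fold change of 0.95 (SE 0.063, edgeR FDR 3.4e-08). Mcm3 was at 147, 144 and 155 CPM in shNC and at 291, 264 and 306 CPM in shTrem2, a log2 fold change of 0.95 (SE 0.057, edgeR FDR 1.48e-08). Mcm4, the lowest of the ring, was at 88.5, 86.6 and 88.4 CPM in shNC and at 162, 149 and 184 CPM in shTrem2, a log2 fold change of 0.91 (SE 0.067, edgeR FDR 9.82e-08). In each of the 6 subunits shTrem2 replicate 2 was the lowest and replicate 3 the highest of its group, without overlap with shNC. The same order was common over the list: replicate 3 was the highest shTrem2 library in 29 of 34 genes (85.3%) and in 35.9% of all tested genes, and replicate 2 was the lowest in 28 of 34 (82.4%) and in 35.2%. The median over the 34 genes of log2 CPM relative to the shNC mean was 0.669, 0.584 and 0.793 in shTrem2 replicates 1, 2 and 3, and 0.0144, -0.0363 and 0.0197 in shNC.

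Length-scaled levels of the MCM subunits were compared in FPKM, which scales fragments to transcript length and library total, as the authors deposited them. The summed FPKM of the 6 subunits was 268, 258 and 277 in shNC and 539, 500 and 571 in shTrem2. The highest subunit exceeded the lowest by 2.03 to 2.18 times in the shNC libraries and by 2.13 to 2.27 times in the shTrem2 libraries. The FPKM ratio of Mcm4 to Mcm2 was 0.782 ± 0.021 in shNC and 0.769 ± 0.013 in shTrem2 (SD, n = 3), with overlapping libraries (exact two-sided permutation p = 0.5). The ratio of Mcm3 to Mcm2 overlapped too (1.62 ± 0.034 and 1.63 ± 0.045). The ratio of Mcm5 to Mcm2 was 1.40 ± 0.013 in shNC and 1.65 ± 0.050 in shTrem2 without overlap. The groups were also apart for Mcm7 to Mcm2 (1.36 ± 0.014 and 1.52 ± 0.120) and, narrowly, for Mcm6 to Mcm2 (1.58 ± 0.104 and 1.69 ± 0.025). With 3 libraries against 3 the smallest p this exact permutation test can give is 0.1. That is the value for the Mcm5, Mcm6 and Mcm7 ratios, and 0.173 after Benjamini-Hochberg adjustment over the 19 subunit ratios compared. Over those 19 ratios the groups were apart in 11 and overlapped in 8.

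The catalytic subunit of DNA polymerase alpha had the largest rise of all 34 genes, while its accessory subunit did not change detectably. Pola1, the catalytic subunit, stood at 40.5, 35.9 and 41.0 CPM in shNC and at 94.3, 88.5 and 98.2 CPM in shTrem2. The lowest shTrem2 library lay far above the highest shNC library, and the mean went from 39.1 ± 2.81 to 93.7 ± 4.86 CPM, a fold of 2.39 (log2 fold change 1.26, 95% interval 1.12 to 1.40, FDR 4.22e-09 in edgeR's quasi-likelihood test). Pola2, the accessory B subunit that links the polymerase to the replisome, stood at 71.4, 66.3 and 63.9 CPM in shNC and at 67.9, 61.5 and 71.0 CPM in shTrem2. Its groups overlapped, with a log2 fold change of -0.01 (95% interval -0.15 to 0.13, edgeR FDR 0.927). The sign of the Pola2 difference turned under 4 of 18 alternative fits and was never past the threshold.

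The primase subunits of the same complex lay between those values. Prim1, the catalytic primase subunit, rose from 40.6 ± 3.49 to 62.0 ± 8.22 CPM, a log2 fold change of 0.61 (edgeR FDR 5.82e-05). Prim2, the large primase subunit, rose from 27.2 ± 2.42 to 46.0 ± 2.50 CPM, a log2 fold change of 0.76 (edgeR FDR 1.41e-06). On the FPKM scale Pola1 was the lowest of the 34 genes in shNC (7.88 ± 0.62) and stood at rank 31 in shTrem2 (18.5 ± 1.08). The FPKM ratio of Pola2 to Pola1 was 4.66, 5.10 and 4.30 in shNC and 2.04, 1.89 and 1.91 in shTrem2, so the excess of the accessory over the catalytic transcript was smaller in every shTrem2 library (exact two-sided permutation p = 0.1, the smallest possible, adjusted p = 0.173). FPKM ratios to Pola1 were also lower for Prim1, at 3.04 ± 0.347 against 2.09 ± 0.184, and for Prim2, at 2.10 ± 0.173 against 1.47 ± 0.015, without overlap (each exact p = 0.1, adjusted p = 0.173).

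**Figure D2:**
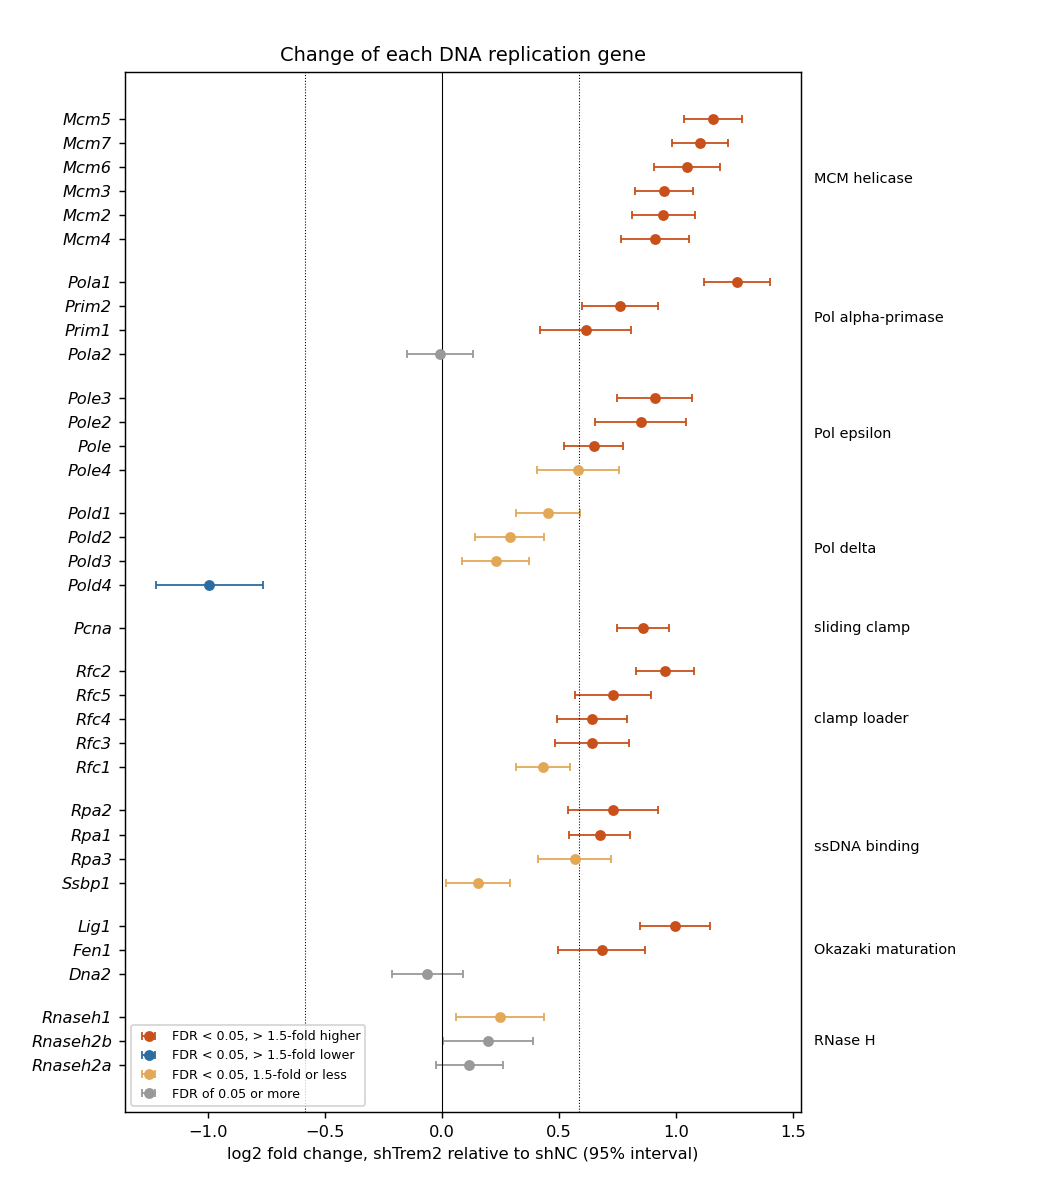
Points give the log2 fold change of each gene in shTrem2 relative to shNC with its 95% interval (horizontal axis), in rows grouped by role and coloured by call, and dotted lines mark 1.5-fold in either direction. The 6 MCM genes lie between 0.91 and 1.16, Pola1 is highest at 1.26, the RNase H genes lie between 0.12 and 0.25, and Pold4 is lowest at -0.99.

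All 4 subunits of DNA polymerase epsilon, the leading-strand polymerase, rose, and 3 of them were called (median log2 fold change 0.75). Pole3, a histone-fold subunit, stood at 24.8, 26.4 and 28.8 CPM in shNC and at 52.7, 46.2 and 51.5 CPM in shTrem2. The groups were far apart, with a log2 fold change of 0.91 (SE 0.075, FDR 2.64e-07 in edgeR's quasi-likelihood test). Pole2, which joins the polymerase to the helicase, rose from 14.3 ± 1.36 to 25.8 ± 1.12 CPM (log2 fold change 0.85, edgeR FDR 2.87e-06). Pole, the catalytic subunit, rose from 62.3 ± 3.06 to 97.6 ± 4.86 CPM (log2 fold change 0.65, edgeR FDR 5.94e-07). Pole4, the histone-fold partner of Pole3, had a log2 fold change of 0.58 from summed counts (edgeR FDR 3.42e-05), just under the fold threshold. That value differed with how transcripts were combined. It was 0.06 on log2(FPKM + 1) (limma FDR 0.654), 0.10 with an offset for effective length (edgeR FDR 0.477) and 0.81 from the transcript row with the highest mean count. The FPKM ratio of Pole4 to Pole was 1.89 ± 0.232 in shNC and 1.23 ± 0.120 in shTrem2 (exact permutation p = 0.1, adjusted p = 0.173).

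DNA polymerase delta, the lagging-strand polymerase, had no subunit called higher and held the only gene called lower. Over all tested genes, 9.46% were called higher and 12.4% lower, and counts in 4 subunits cannot be told from those shares. Pold4 encodes the smallest subunit, which is dispensable for catalysis and whose protein is known to be degraded after DNA damage. Protein was not measured here. The Pold4 transcript stood at 22.2, 20.6 and 21.6 CPM in shNC and at 10.4, 12.4 and 9.57 CPM in shTrem2. Every shTrem2 library lay below every shNC library, which was so for 31.7% of all tested genes. The mean went from 21.5 ± 0.814 to 10.8 ± 1.43 CPM, 1.99-fold lower, with a log2 fold change of -0.99 (95% interval -1.22 to -0.77, FDR 3.04e-06 in edgeR's quasi-likelihood test). Pold4 was called lower under all 18 alternative fits, with log2 fold changes from -1.10 to -0.92.

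The other 3 subunits rose by less than 1.5-fold. Pold1, the catalytic subunit, rose from 74.8 ± 3.16 to 102 ± 8.06 CPM (log2 fold change 0.45, edgeR FDR 3.42e-05). Pold2, the regulatory subunit that holds the complex together, rose from 43.0 ± 1.94 to 52.6 ± 4.03 CPM (log2 fold change 0.29, edgeR FDR 0.00239), but the change was 0.08 on log2(FPKM + 1) (limma FDR 0.645) and 0.11 with the effective length offset (edgeR FDR 0.497). Pold3, which binds PCNA, rose from 43.0 ± 3.56 to 50.5 ± 0.613 CPM (log2 fold change 0.23, edgeR FDR 0.00877), but it missed the threshold when shNC replicate 1 was left out (0.17, edgeR FDR 0.0629). The FPKM ratio of Pold4 to Pold1 was 1.18, 1.21 and 1.07 in shNC and 0.397, 0.472 and 0.371 in shTrem2, so the Pold4 transcript went from about level with that of the catalytic subunit to well below it (exact two-sided permutation p = 0.1, the smallest possible, adjusted p = 0.173). By FPKM, Pold4 went from rank 12 to rank 32 of the 34 genes.

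**Figure D3:**
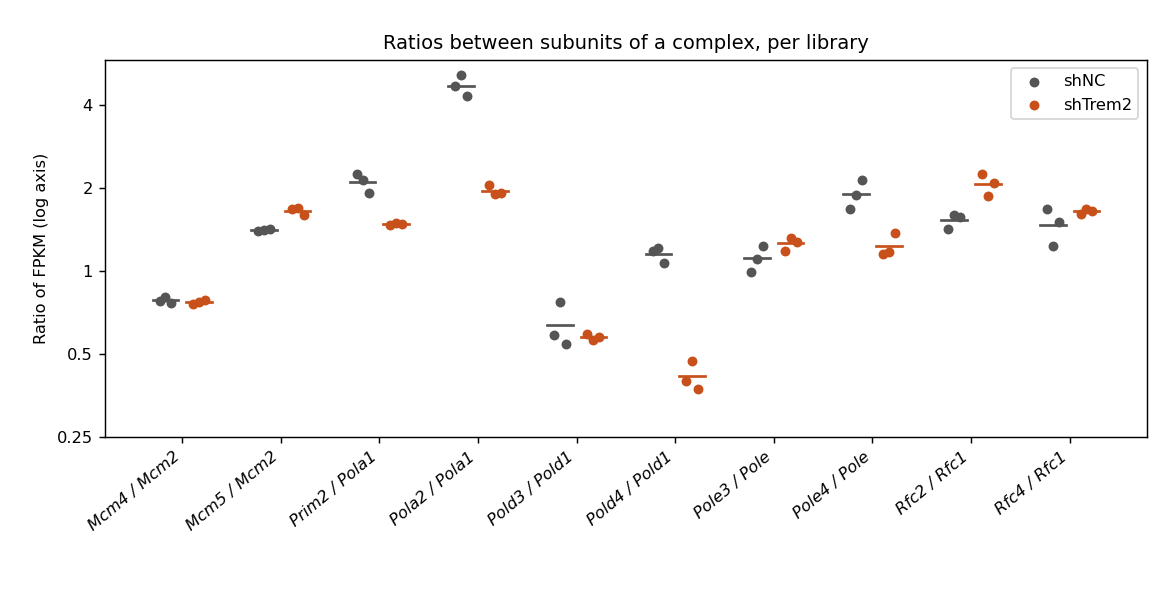
Each point is the ratio of 2 subunits' FPKM in 1 library (vertical log axis), for 10 of the 19 ratios, with shNC in grey, shTrem2 in orange and a bar at each mean. The ratios of Pola2 to Pola1 (4.69 against 1.95) and of Pold4 to Pold1 (1.15 against 0.413) separate the groups most widely, while those of Mcm4 to Mcm2 and Pold3 to Pold1 overlap.

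Pcna, the sliding clamp, was the most abundant DNA replication transcript on the FPKM scale in both groups, at 274 ± 4.22 in shNC and 487 ± 32.6 in shTrem2. In CPM it stood at 321, 316 and 330 in shNC and at 586, 547 and 621 in shTrem2. The groups were far apart, with a log2 fold change of 0.86 (SE 0.051, FDR 1.31e-08 in edgeR's quasi-likelihood test). Rows named as pseudogenes of Pcna held no counts in any library.

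The clamp loader, the RFC pentamer that opens PCNA and places it at primer ends, rose in all 5 subunits, and 4 were called (median log2 fold change 0.64). Rfc2 stood at 47.3, 51.3 and 49.3 CPM in shNC and at 95.3, 91.2 and 99.8 CPM in shTrem2. Its libraries were tightly grouped and far apart, with a log2 fold change of 0.95 (SE 0.058, edgeR FDR 1.53e-08). The other small subunits rose less, Rfc5 by 0.73, Rfc3 by 0.64 and Rfc4 by 0.64 on the log2 scale (edgeR FDR at most 6.19e-06). Rfc1, the large subunit that is particular to the replicative loader, rose from 111 ± 2.53 to 150 ± 9.86 CPM (log2 fold change 0.43, edgeR FDR 1.28e-05), and from its most abundant transcript row alone the change was 0.29 (edgeR FDR 0.134). The FPKM ratio of Rfc2 to Rfc1 was 1.53 ± 0.099 in shNC and 2.07 ± 0.189 in shTrem2 without overlap (exact permutation p = 0.1, adjusted p = 0.173), while that of Rfc4 to Rfc1 overlapped (p = 0.3 in the same exact test).

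Of the 4 single-strand binding genes, the nuclear RPA subunits rose and the mitochondrial protein moved little. Rpa2, the RPA subunit phosphorylated when forks stall, stood at 49.7, 44.8 and 42.7 CPM in shNC and at 77.4, 65.0 and 85.1 CPM in shTrem2. The shTrem2 libraries spread widely but stayed above shNC, with a log2 fold change of 0.73 (SE 0.090, FDR 1.09e-05 in edgeR's quasi-likelihood test). Rpa1, the main DNA-binding subunit, rose by 0.67 (edgeR FDR 5.58e-07), and Rpa3, the smallest, by 0.57 on the log2 scale (edgeR FDR 1.49e-05), which is 1.48-fold. Ssbp1, the single-strand binding protein of mitochondria, stood at 66.9, 69.2 and 78.0 CPM in shNC and at 80.1, 81.8 and 76.6 CPM in shTrem2. Its groups overlapped, and its log2 fold change of 0.16 was at the threshold (edgeR FDR 0.0496). Ssbp1 missed the threshold under 15 of 18 alternative fits, among them DESeq2 (FDR 0.0669) and the fits without shNC replicate 1 (0.235), shNC replicate 2 (0.189), shTrem2 replicate 1 (0.117) or shTrem2 replicate 2 (0.124).

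Among the genes that finish Okazaki fragments, the ligase rose most and the nuclease Dna2 did not pass the test. Lig1, the replicative DNA ligase, stood at 72.1, 64.3 and 71.9 CPM in shNC and at 145, 124 and 147 CPM in shTrem2. The groups were far apart, with a log2 fold change of 1.00 (SE 0.069, FDR 5.36e-08 in edgeR's quasi-likelihood test). Fen1, the flap endonuclease, rose from 60.7 ± 6.17 to 97.5 ± 11.4 CPM (log2 fold change 0.68, edgeR FDR 1.49e-05), and from its most abundant transcript row alone the change was 0.59 (edgeR FDR 0.0551). Dna2, a helicase-nuclease that trims long flaps and also resects DNA ends, stood at 60.8, 68.0 and 63.2 CPM in shNC and at 60.7, 56.5 and 66.9 CPM in shTrem2. Its groups overlapped, with a log2 fold change of -0.06 (95% interval -0.21 to 0.09, edgeR FDR 0.473).

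The RNase H genes, whose products remove RNA from RNA-DNA hybrids, had the lowest median change of the role groups. None of the 3 on the KEGG list was called, which is near the shares of all tested genes (9.46% higher, 12.4% lower). Their log2 fold changes ran from 0.12 to 0.25 (median 0.20). Rnaseh1, the monomeric enzyme of nucleus and mitochondria, stood at 16.3, 15.8 and 14.6 CPM in shNC and at 18.5, 18.4 and 18.6 CPM in shTrem2. The groups were apart, and the log2 fold change of 0.25 (SE 0.088) passed with an FDR of 0.0261 in edgeR's quasi-likelihood test. It missed the threshold under 11 of 18 alternative fits, among them DESeq2 (FDR 0.0633) and the fits without shNC replicate 2 (0.0632), shNC replicate 3 (0.0847), shTrem2 replicate 1 (0.0569) or shTrem2 replicate 3 (0.0535).

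Rnaseh2a, the catalytic subunit of RNase H2, stood at 44.5, 42.6 and 44.8 CPM in shNC and at 45.9, 51.9 and 45.2 CPM in shTrem2. The groups did not overlap, but replicates 1 and 3 of shTrem2 lay just above shNC, and the log2 fold change of 0.12 did not pass (95% interval -0.03 to 0.26, edgeR FDR 0.149). From its most abundant transcript row alone the Rnaseh2a change was 0.56, above the range of this group from summed counts, and did not pass either (edgeR FDR 0.0815). Rnaseh2b, an accessory subunit, stood at 15.9, 15.3 and 15.1 CPM in shNC and at 18.1, 16.6 and 18.3 CPM in shTrem2. The groups were apart, and the log2 fold change of 0.20 did not pass (95% interval 0.01 to 0.39, edgeR FDR 0.0741), although it did without shTrem2 replicate 2 (0.24, edgeR FDR 0.0471). Rnaseh2c, the remaining subunit of RNase H2, was placed with RNase H when the role groups were drawn up. It has no KEGG pathway in the deposited annotation, so it is not among the 34 genes or in the group's median. Its value was looked at after the others were seen, and it rose more than any of the 3 RNase H genes counted. Its mean level went from 17.3 ± 1.59 to 23.4 ± 3.02 CPM (log2 fold change 0.43, edgeR FDR 0.0032).

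Set side by side, the 6 MCM genes were all called higher (median log2 fold change 1.00), 6 of 12 polymerase subunits were called higher and 1 lower (median 0.60), 4 of 5 clamp loader genes were called higher (median 0.64), and none of 3 RNase H genes was called (median 0.20). Over all tested genes, 9.46% were called higher and 12.4% lower. A group of 3 genes with none called is near those shares. In every shTrem2 library the median of the MCM genes relative to the shNC mean, at 1.02, 0.868 and 1.11 in replicates 1 to 3, was above that of the delta subunits, at 0.245, 0.206 and 0.330, and of the RNase H genes, at 0.229, 0.241 and 0.248. The difference between role groups was not tested.

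Replication genes outside the KEGG list were read from 7 lists of 101 tested genes grouped by role, of which 38 were called higher and 2 lower, against 9.46% and 12.4% of all tested genes, the shares beside which each count below is to be read. Of 10 origin licensing genes, whose products load the MCM ring, 3 were called higher and none lower. These were Gmnn, which encodes the licensing inhibitor geminin (35.8 ± 1.75 to 64.7 ± 4.13 CPM, edgeR FDR 1.49e-07), the loader Cdc6 (29.9 ± 1.14 to 53.4 ± 6.24 CPM, edgeR FDR 1.35e-06) and the origin recognition subunit Orc6 (25.7 ± 1.30 to 42.4 ± 3.96 CPM, edgeR FDR 3.38e-06). In this list 5 more genes rose and 2 fell by 1.5-fold or less. Of 14 genes of origin firing and assembly of the CMG helicase (Cdc45, MCM and GINS), 7 were called higher and none lower. Mcm10, which activates the helicase, had the largest change there (42.7 ± 2.74 to 80.4 ± 5.52 CPM, log2 fold change 0.91), followed by the firing factors Mtbp (0.73), Ticrr (0.72) and Recql4 (0.70).

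The partners of MCM in the CMG helicase were looked at after their values were seen. Cdc45 rose by 0.60 on the log2 scale (edgeR FDR 1.83e-05), Gins1 by 0.46 (edgeR FDR 0.000199) and Gins4 by 0.43 (edgeR FDR 0.00023). Gins2 stood at 0.11 (edgeR FDR 0.153) and Gins3 at -0.06 (edgeR FDR 0.417), and neither passed. All 6 MCM subunits thus had larger fold changes than any of these 5 partners, a difference that was not tested.

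Of 14 nucleotide supply genes, 9 were called higher and none lower. Tyms, the thymidylate synthase, rose from 17.05 ± 1.12 to 44.3 ± 5.18 CPM, a log2 fold change of 1.38 that exceeded that of every DNA replication gene (edgeR FDR 3.68e-08). The salvage kinase Dck rose by 1.03, and the ribonucleotide reductase subunits Rrm1 and Rrm2 by 0.97 and 0.80. The reductase subunit Rrm2b went the other way, from 31.8 ± 3.77 to 21.2 ± 0.904 CPM (log2 fold change -0.58, edgeR FDR 7.74e-05), just under the fold threshold. At an FDR under 0.05 alone, 11 genes of this list rose and 1 fell. Of 14 genes of replication-coupled chromatin and topology, 8 were called higher and none lower, led by the histone chaperone Asf1b (0.87), the hemimethylated DNA reader Uhrf1 (0.86), the FACT subunit Ssrp1 (0.81) and the histone H3-H4 chaperone Nasp (0.79). Of 15 fork protection and checkpoint genes, 6 were called higher and none lower. At an FDR under 0.05 alone, 11 rose and 2 fell, Rad1 (log2 fold change -0.36, edgeR FDR 0.00499) and Rad9a (-0.23, edgeR FDR 0.0294). Atr (-0.0038, edgeR FDR 0.963) and Atrip (0.09, edgeR FDR 0.364) did not pass. Chek1, the checkpoint kinase, had the largest change there (27.4 ± 2.37 to 60.4 ± 5.90 CPM, log2 fold change 1.14, edgeR FDR 8.24e-08), followed by the ATR activator Etaa1 (0.91), the fork protection gene Timeless (0.91) and the checkpoint adaptor Clspn (0.80).

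Of 13 E2F, pocket protein and DP genes, 4 were called higher and 1 lower. At an FDR under 0.05 alone, 7 rose and 4 fell. Those that fell included the pocket protein genes Rbl2 (log2 fold change -0.45, edgeR FDR 2.01e-05) and Rb1 (-0.19, edgeR FDR 0.0247). Rbl1, which encodes the pocket protein p107, rose from 62.3 ± 6.57 to 118 ± 2.38 CPM (log2 fold change 0.92), the repressor E2f8 rose by 0.80 and the dimer partner Tfdp1 by 0.64, while E2f5 fell by 0.64 on the log2 scale (27.4 ± 2.30 to 17.6 ± 1.57 CPM, edgeR FDR 4.86e-05). Without shTrem2 replicate 1 this list had 3 calls in place of 5. Of 21 translesion, gap-filling and mitochondrial replication genes, 1 was called higher and 1 lower (9.46% and 12.4% over all tested genes), and the median was -0.16 on the log2 scale. Polq, the polymerase of end joining by short homologies, rose from 19.4 ± 1.84 to 30.5 ± 2.91 CPM (log2 fold change 0.65). Polk, a translesion polymerase, fell from 79.5 ± 7.17 to 30.4 ± 0.383 CPM (log2 fold change -1.38, edgeR FDR 3.02e-09). Without shTrem2 replicate 3 this list had 1 call in place of 2.

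**Figure D4:**
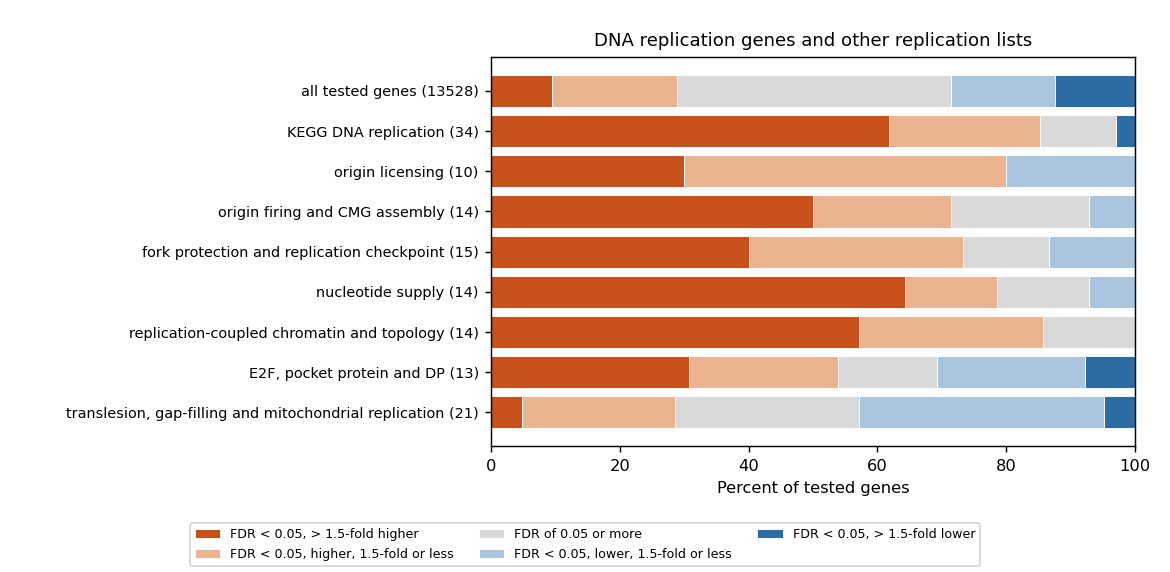
Bars give the percent of tested genes (horizontal axis) in each list by direction and size of change, with the number tested in brackets. Genes called higher make up 9.46% of all tested genes, 61.8% of the DNA replication genes and 1 of 21 in the translesion, gap-filling and mitochondrial list.

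Many DNA replication genes also serve DNA repair, and 26 of the 34 were in at least 1 of 5 other KEGG pathways. The genes that those pathways do not share with DNA replication were called higher in smaller shares than the DNA replication genes, 3 of 39 (7.69%) in nucleotide excision repair, 2 of 27 (7.41%) in base excision repair, 1 of 7 in mismatch repair, 7 of 31 (22.6%) in homologous recombination and 39 of 139 (28.1%) in the cell cycle, beside 9.46% of all tested genes. The excision repair shares thus lay near that of all genes. Called lower were 2 of the 39, 3 of the 27, none of the 7, 1 of the 31 and 9 of the 139 genes, beside 12.4% of all tested genes. Their median log2 fold changes were 0.14, -0.02, 0.20, 0.41 and 0.28, beside 0.66 for DNA replication. The shared genes were 18 in nucleotide excision repair, 16 in base excision repair, 15 in mismatch repair, 8 in homologous recombination and 7 in the cell cycle, the last being the MCM genes and Pcna. Differences between pathways were not tested.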

How the data were processed

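Reads were trimmed, aligned and assembled by the authors with fastp, HISAT2 in orientation-aware mode and StringTie, on GRCm39 per the submitters' processing notes, and the counting tool and annotation release are not given in the sources used here. The authors deposited estimated counts per transcript row with gene symbols only, unscaled and mostly fractional (79.3% of those above 0), and FPKM values per gene. How reads were shared among transcripts of a gene can therefore move a gene's count. The authors' group means were not used.

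All rows of a symbol were added up and rounded to whole counts. Rows without a symbol held 0.908% to 1.12% of a library's counts and were left out. A count of 0 allows up to 3 counts, 0.153 to 0.189 CPM. This limit takes in counting error alone, as copies made by PCR are not separate molecules. edgeR 4.0.16 in R 4.3.3 was used with filterByExpr by group, TMM normalization and the quasi-likelihood test without covariates on 13528 genes, with Benjamini-Hochberg adjustment over all of them. Genes were called at FDR under 0.05 and fold change over 1.5, the study's criteria. CPM used TMM-adjusted library sizes, and the SE of a log2 fold change was its size divided by the square root of F. The fits were tested on simulated data.

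Within a group, libraries differed by more than sampling noise (chi-square per degree of freedom 2.61 to 10.6, against at least 65.3 between groups). Each counted as 1 replicate, but this spread cannot show whether the libraries came from separate cultures. DESeq2 1.42.0 and limma 3.58.1 were used for alternatives: other normalizations, filters and thresholds, limma-voom, a replicate block, each library left out, the highest transcript row per gene, log2(FPKM + 1), log2(FPKM + 0.1) and an effective length offset. The last divides count by FPKM and was left at 1 for counts below 5 or FPKM below 0.5.

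The genes and lists were chosen with earlier results of these data known, so no list was tested as a set. All 34 genes may be named. Library values are given for the MCM genes, Pcna, the largest change in each role group, genes called lower and genes not past the FDR threshold. Ssbp1 and Rnaseh1, which lay near the threshold, were given in the same way after their values were seen. Up to 4 called genes with the largest changes and a mean log2 CPM of at least 1 are named per further list. Rrm2b, Rad1, Rad9a, Atr, Atrip, Rb1 and Rbl2 were added after their values were seen. Subunit ratios were added after the data were seen.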

Additional observations from a re-analysis of the deposited data

How the results depend on the processing

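Over 18 alternative fits, 19 to 22 DNA replication genes were called higher and 1, Pold4, was called lower in each fit, and the median log2 fold change ran from 0.60 to 0.72, as it did with 1 library left out at a time. DESeq2 called 21 higher. A fold threshold of 2 left 4 higher and 0 lower. Of 612 single-gene results under alternatives, 569 kept their direction and side of the FDR threshold, 35 lost the threshold and 2 gained it. The sign turned in 6: Pola2 was at 0.11 from the highest transcript row, 0.0044 with the effective length offset, and from -0.0631 to 0.0505 with 1 library left out (above 0 without shNC replicate 1 or shTrem2 replicate 2), and Rnaseh2a was at -0.0241 on log2(FPKM + 1) and -0.0244 on log2(FPKM + 0.1). The cause was not tested. With 1 library left out, calls ranged from 3 to 5 in the E2F list and from 1 to 3 in the translesion list.

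Same-numbered libraries did not deviate together (correlations -0.0263 to -0.0129), so the numbers were not taken to pair the samples. The fit with the replicate block called 21 genes higher and 1 lower, and took the FDR of 1 gene, Ssbp1, over the threshold, to 0.0553. Other scalings moved the median of all genes by at most 0.0341 on the log2 scale. With 3 libraries per group, single-ratio permutation tests could not go below 0.1.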
